A study of Homo sapiens with 5 samples.

Results

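The G4 regions of chromosome 1 are places on that chromosome where a BG4 ChIP-seq peak was called in at least 2 of 4 replicates of C4-2 cells. BG4 is an antibody that binds folded G-quadruplexes, and C4-2 is a widely used human cell line of prostate cancer whose growth does not need androgen. Overlapping peaks of the 4 replicates (1 bp or more) were joined, merged regions with a peak of at least 2 replicates were kept as recurrent, and those on chromosome 1 were taken. This gave 702 regions of the 6835 recurrent regions in the series. Of the rest, 5841 lay on the other chromosomes and 292 on contigs outside the assembled chromosomes. All samples are C4-2 cells, with no treatment given in the labels, so there was 1 condition and no contrast between conditions. The cells were cross-linked with formaldehyde and their chromatin was sheared by sonication, and an input library was not analysed here. The methods call the replicates biological, and the labels number them without naming separate cultures, so p-values refer to these 4 samples only. Each peak carries a fold enrichment, which is the authors' ratio of signal at the summit to the local background. Read counts are not part of the lists, and library depth is therefore unknown.

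A G-quadruplex, or G4, is a 4-stranded fold of guanine-rich DNA in which planes of 4 guanines are stacked on each other. G4s are found in open chromatin, above all near gene starts, and guanine-rich sequence is most common in the GC-rich, gene-dense bands of the genome. Chromosome 1 is the longest human chromosome and holds both kinds of band. Band 1p36, at the tip of the short arm, is GC-rich and dense in genes. Band 1q21 holds many gene families and recent segmental duplications. Bands 1p31 to 1p21 and 1q31 are gene-poor, and the centromere with band 1q12 is mostly repetitive heterochromatin.

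The study lists 4000 bp windows centred on gene starts. They are those it took as specific to prostate cancer after setting C4-2 peaks against G4 maps of HepG2 liver cancer and K562 leukaemia cells, so the list is not all gene starts with a peak, and 129 of its windows were on chromosome 1. Sequences are shown for the windows in which at least 3 replicates had a summit and every summit lay within 250 bp of the window centre, and whose gene has 1 promoter in RefSeq, so that the peak and the printed bases refer to the same start. These are MFSD2A, a lipid transporter, EDN2, a peptide of the endothelin family, PLXNA2, a semaphorin receptor, VASH2, an enzyme that trims tubulin, and SUSD4, a complement-control protein. Each line gives the 250 bases before the RefSeq start on GRCh38.p14, 5′ to 3′ on the strand of the gene. Capitals mark a G4 motif, searched on both strands as 4 runs of at least 3 G joined by loops of 1 to 7 bases. A motif on the opposite strand appears as runs of C.
MFSD2A: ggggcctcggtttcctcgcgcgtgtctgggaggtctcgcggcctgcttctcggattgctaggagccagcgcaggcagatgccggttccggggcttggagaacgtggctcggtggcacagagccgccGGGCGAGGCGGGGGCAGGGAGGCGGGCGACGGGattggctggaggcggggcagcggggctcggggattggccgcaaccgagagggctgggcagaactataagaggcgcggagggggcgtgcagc
EDN2: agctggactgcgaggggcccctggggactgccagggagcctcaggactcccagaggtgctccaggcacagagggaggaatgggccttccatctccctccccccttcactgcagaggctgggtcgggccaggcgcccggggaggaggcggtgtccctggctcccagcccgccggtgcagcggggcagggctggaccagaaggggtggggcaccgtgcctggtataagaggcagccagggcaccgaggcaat
PLXNA2: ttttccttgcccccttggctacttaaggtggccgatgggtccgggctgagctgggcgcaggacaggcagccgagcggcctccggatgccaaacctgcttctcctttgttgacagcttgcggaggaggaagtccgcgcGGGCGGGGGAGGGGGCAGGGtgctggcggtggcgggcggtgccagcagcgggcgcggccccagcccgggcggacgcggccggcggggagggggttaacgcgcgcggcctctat
VASH2: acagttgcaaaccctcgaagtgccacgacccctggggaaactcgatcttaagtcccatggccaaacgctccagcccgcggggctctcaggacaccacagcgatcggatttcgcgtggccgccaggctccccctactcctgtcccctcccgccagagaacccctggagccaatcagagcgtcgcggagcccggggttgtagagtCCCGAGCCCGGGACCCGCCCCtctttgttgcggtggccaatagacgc
SUSD4: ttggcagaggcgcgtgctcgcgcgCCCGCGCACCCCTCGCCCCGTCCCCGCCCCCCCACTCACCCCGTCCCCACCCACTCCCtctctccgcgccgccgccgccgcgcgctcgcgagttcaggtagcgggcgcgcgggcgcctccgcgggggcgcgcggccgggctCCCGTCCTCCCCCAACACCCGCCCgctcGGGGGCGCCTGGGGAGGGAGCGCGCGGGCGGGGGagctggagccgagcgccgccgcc
The MFSD2A sequence is chr1:39954895-39955144 on the plus strand, the EDN2 sequence chr1:41484684-41484933 on the minus strand, and the PLXNA2 sequence chr1:208244385-208244634 on the minus strand. The VASH2 sequence is chr1:212950291-212950540 on the plus strand and the SUSD4 sequence chr1:223364177-223364426 on the minus strand. All other positions in the text are those of the peak lists on GRCh37 and were not converted.

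In MFSD2A the motif lay on the strand of the gene, from base -124 to base -92 of the start. PLXNA2 held 1 on the same strand, from base -113 to base -94. In VASH2 it lay on the opposite strand, from base -47 to base -27. SUSD4 held 3 stretches of motif, from base -226 to -169 and from -85 to -62 on the opposite strand and from -57 to -24 on its own strand. EDN2 held none in this window, although all 4 replicates had a peak there. These are matches of letters, not measured folds.

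The motif was also counted over all genes with a promoter in the RefSeq table, in the 300 bases from 250 before to 50 after each start. It was found for 27.9% of 27305 genes, and for 27.9% of the 2822 genes of chromosome 1. Of the 129 chromosome 1 windows, 73 matched a gene with a promoter, and 36 of these genes (49.3%) held the motif. The share was 15 of 38 (39.5%) where 1 replicate had a peak, 21 of 35 (60.0%) where at least 2 had one and 8 of 12 (66.7%) where at least 3 had one. Genes were matched by symbol, so a promoter with the motif need not be the start in the window. EBNA1BP2, among the 8, has its RefSeq promoters far from that of TMEM125, although their windows overlap. AK4, also among the 8, held the motif in only 1 of several promoters. A gene with several promoters was counted once if any held the motif. For GC content the most GC-rich promoter of each gene was taken, and the median was 67% for the window genes and 59.7% for all genes. Among the window genes it was 68.3% where 1 replicate had a peak, 65% where at least 2 had one and 72% where at least 3 had one. The part of GC content in the shares was not tested.

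Recurrent regions were denser on chromosome 1 than on the other chromosomes. There were 2.82 regions per Mb on chromosome 1 and 2.06 on the others, which placed chromosome 1 at rank 6 by density. The 4 replicates had 827, 632, 725 and 427 peaks on chromosome 1, or 3.32, 2.54, 2.91 and 1.71 peaks per Mb. Replicate 1 had the most and replicate 4 the fewest. Peak density on chromosome 1 over that on the other chromosomes was 1.38, 1.36, 1.43 and 1.29 in replicates 1 to 4. The mean ratio was 1.36 ± 0.0544 (SD, n = 4), above 1 in all 4 replicates, with p = 0.13 by a two-sided exact permutation test (sign flips of the log2 ratio). With 4 replicates this test cannot give a smaller p, so it cannot reach 0.05. It gives this p whenever all 4 ratios lie on the same side of 1, whatever their spread.

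The regions were short. They were 297 to 1570 bp wide with a median of 527 bp, against 519 bp on the other chromosomes, and covered 406 kb in all. Their fold enrichment was close to that of the rest of the genome. The highest fold enrichment of a region had a median of 9.14 on chromosome 1 and 9.12 on the other chromosomes. Per replicate, the median over chromosome 1 regions was 8.29, 7.81, 8.04 and 7.31. The difference to the other chromosomes averaged 0.000495 ± 0.0866 (SD, n = 4), with p = 1 by the two-sided exact permutation test.

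Support by replicates was close to that of all recurrent regions. A peak in all 4 replicates was found for 285 of the 702 regions, or 40.6% (95% exact binomial interval 36.9% to 44.3%), where the background over all recurrent regions was 41.5%. A further 194 regions (27.6%) had a peak of 3 replicates and 223 (31.8%) of 2. Replicates 1 to 4 had a peak in 638, 544, 594 and 392 of the regions, so 55.8% had one in replicate 4 and 90.9% in replicate 1. The most common partial pattern was replicates 1, 2 and 3 without replicate 4, with 127 regions. The next was replicates 1 and 3, with 90 regions, while replicates 2 and 4 alone shared 8. A further 423 merged regions of chromosome 1 had a peak of 1 replicate and were left out by the rule. They were just outside it, with a median highest fold enrichment of 5.60 and a median width of 315 bp. Intervals here cover counting error only, and regions are not replicates.

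Regions with more replicates were stronger and wider. The median highest fold enrichment was 6.99 with 2 replicates, 8.98 with 3 and 12.5 with all 4, and the median width was 428, 513 and 635 bp. The highest of 4 values exceeds the highest of 2 by construction, so part of this order follows from the count. A region spans all peaks joined in it, so the same holds for the order of widths. The plot by replicate support shows the same order of fold enrichment within each replicate. Fold enrichment was correlated between replicates over the regions, with 0 where a replicate had no peak, at a mean Pearson r of 0.631 over 6 pairs. On log2(fold enrichment + 1) the mean was 0.290. The pair of replicates 2 and 4 gave the lowest value (0.583), and that of replicates 1 and 3 the highest (0.676). The mean over the other chromosomes was 0.638. These points share their libraries and are given as a description.

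**Figure D1:**
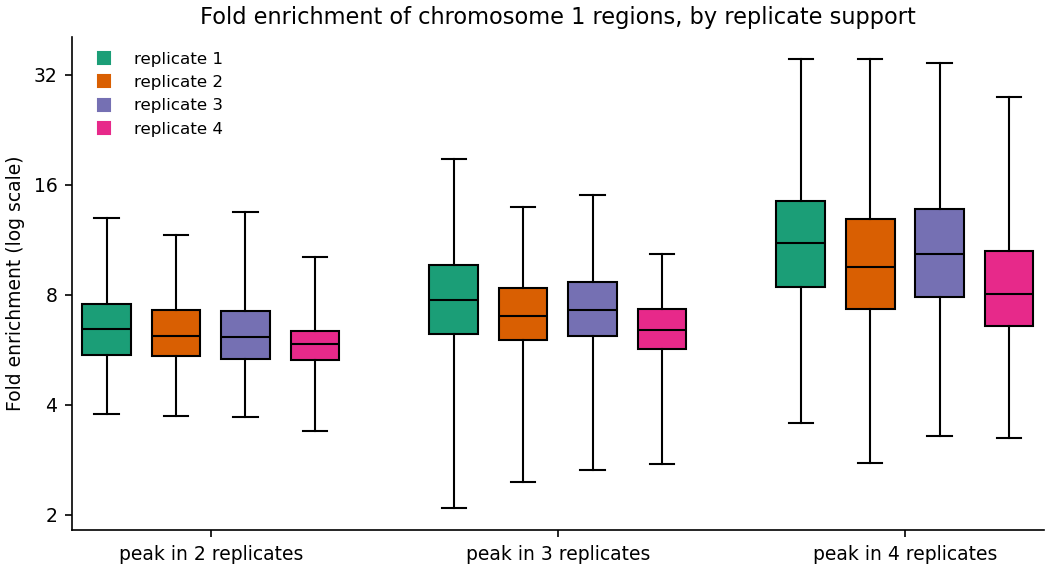
Fold enrichment of the chromosome 1 regions (log scale) in each replicate, for regions with a peak in 2, 3 or 4 replicates. Boxes span the quartiles, lines mark the median and whiskers reach the lowest and highest value; in every replicate the median is highest for the 285 regions with a peak in all 4.

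Along the chromosome the regions were unevenly spread. In 250 bins of 1 Mb the median was 2 regions, 82 bins (32.8%) held none and 33 held 1. Over all chromosomes, the share of bins that held none was higher, at 43.0%. At the other end, 13 bins held 10 or more, and these took 180 regions, or 25.6%. Bins this full made up 5.2% of the bins of chromosome 1 and 4.06% of the 3107 bins of all chromosomes. The 25 fullest bins held 40.03% of the regions. Bin counts of peaks were alike between replicates, with r from 0.888 to 0.947 over the bins. The short arm held 421 regions (3.47 per Mb) and the long arm 281 (2.64 per Mb from the start of 1q21 on). Of these, 41.8% and 38.8% had a peak in all 4 replicates, beside 41.5% over all recurrent regions.

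**Figure D2:**
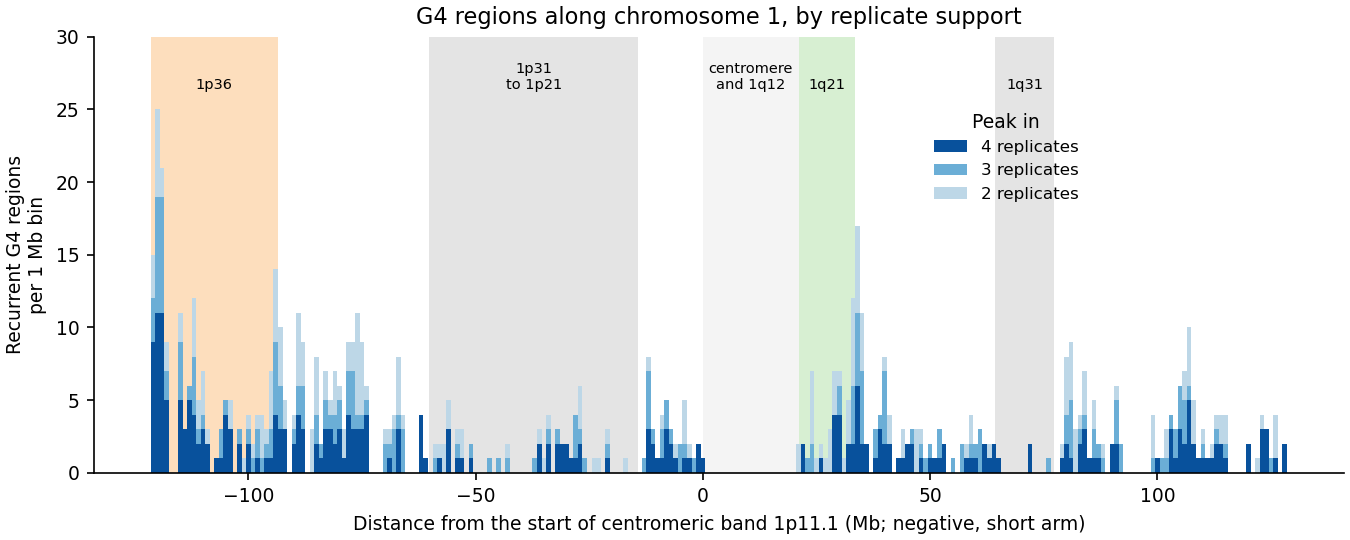
Recurrent G4 regions per 1 Mb bin along chromosome 1, against the distance in Mb from the start of the centromeric band, with bars stacked by the number of replicates with a peak and the named bands shaded. The tallest bar, with 25 regions, is near the tip of the short arm, and 20 bins in a row over the centromere and 1q12 are empty.

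Band 1p36 was the densest of the stretches. It held 173 regions, or 24.6% of the members on 11.2% of the chromosome's length, at 6.18 per Mb. Its peaks numbered 212, 168, 181 and 117 in replicates 1 to 4, or 7.57, 6, 6.46 and 4.18 per Mb, and each value was above that of the rest of the chromosome in the same replicate. The density over that of the rest was 2.80 ± 0.155 (SD, n = 4), above 1 in all 4 replicates, with p = 0.13 by the two-sided exact permutation test. The rest includes the empty bins of the centromere and 1q12. When bins without a peak of any replicate were left out of the rest only, the ratio was 1.95. Within the band, all 4 replicates had a peak in 80 regions (46.2%, interval 38.6% to 54.0%), beside 41.5% over all recurrent regions. Fold enrichment was lower here in 3 of 4 replicates. The median in 1p36 minus that of the other chromosome 1 regions was -0.32, -0.46, -0.27 and 0.01 in replicates 1 to 4.

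The tip of the short arm carried much of this. The first 3 Mb held 61 regions, of which 31 had a peak in all 4 replicates, at 20.3 regions per Mb. Among the 61 were the 5 regions at chr1:564522-569649, over copies of mitochondrial genes. Density was 5.86 per Mb in bins 4 to 10 and 3.94 in bins 11 to 28, and it was 5.26 in bins 29 to 55, beyond the band. The fullest bin of the chromosome, from 1 to 2 Mb, held 25 regions, 11 with a peak in all 4 replicates, from 30, 21, 23 and 16 peaks. The next, from 2 to 3 Mb, held 21 regions from 31, 27, 22 and 12 peaks. Replicate 4 was the lowest in both bins. Of the 21 regions, 3 at chr1:2583594-2587649 and 3 at chr1:2616934-2629419 were weak. Their highest fold enrichment was 2.67 to 3.56 and 2.88 to 4.36, where the chromosome's median was 9.14. Of all 3107 bins in the genome, 5 were fuller than the bin from 1 Mb and 11 fuller than that from 2 Mb. The highest count was 36, on chromosome 16. Without the first 3 bins, the density ratio of 1p36 was 2.03, a check chosen after the data were seen.

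Band 1q21 was denser than the rest of the chromosome on average, but not denser than the bins of the rest that held a peak. It held 49 regions in the 12 bins wholly inside it, at 4.08 per Mb. The peaks numbered 55, 39, 51 and 27 in replicates 1 to 4. The density over that of the rest was 1.41, 1.30, 1.496 and 1.33, with a mean of 1.38 ± 0.0868 (SD, n = 4) and p = 0.13 by the two-sided exact permutation test. When bins without a peak of any replicate were left out of the rest, the density of the rest can only rise. The ratio was then 0.970, with p = 0.375 by the same exact test. Of the 49 regions, 15 were found in all 4 replicates (30.6%, interval 18.3% to 45.4%) and 25 (51.0%) in only 2. Over all recurrent regions these shares were 41.5% and 30.7%. The median fold enrichment was lower than in the other chromosome 1 regions in all 4 replicates, with differences of -0.46, -0.47, -1.07 and -0.41.

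Inside 1q21 the regions were not evenly placed. The bin from 154 to 155 Mb held 12 of the 49 and those from 145, 150 and 151 Mb held 7 each. The 12 regions at the distal edge continued into the next band. The 3 bins from 154 to 157 Mb held 40 regions, the fullest run of 3 bins on the long arm, at 13.3 per Mb and 14.2% of the arm. All 4 replicates had a peak in 10 of them (25%), beside 41.5% over all recurrent regions. At the proximal edge the region chr1:143913129-143913951 had fold enrichments of 20.5, 17.3, 14.7 and 13.2, the highest in replicate 1 and the lowest in replicate 4.

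The gene-poor middle of the short arm held few regions. Bands 1p31 to 1p21 had 57 in 45 bins, at 1.27 per Mb. Of these bins, 20 held none, beside 43.0% of the bins of all chromosomes. The peaks numbered 63, 46, 53 and 34 in replicates 1 to 4. The density over that of the rest was 0.374, 0.356, 0.358 and 0.393, below 1 in all 4 replicates, with a mean of 0.370 ± 0.0170 (SD, n = 4) and p = 0.13 by the two-sided exact permutation test. When bins without a peak of any replicate were left out of the rest only, the ratio was 0.271. The share with a peak in all 4 replicates was 22 of 57 (38.6%, interval 26.0% to 52.4%), beside the background of 41.5%. The median fold enrichment was lower than in the other chromosome 1 regions in all 4 replicates, with differences of -0.86, -0.47, -0.84 and -0.27. Single regions were strong, and chr1:89458161-89458899 and chr1:65885746-65886479 were among the 6 strongest of the chromosome.

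Band 1q31 was sparser still. It held 4 regions in 12 bins, from 5, 4, 5 and 3 peaks in replicates 1 to 4, and 3 of the 4 had a peak in all replicates. The strongest, chr1:193090751-193091361, had fold enrichments of 11.06, 17.0, 14.5 and 6.37. The centromere and 1q12 held no region and no peak of any replicate in 20 bins, from 122 to 142 Mb. An empty bin there cannot be told apart from sequence that is missing in the assembly or to which reads do not map uniquely. The last region before this gap, chr1:121484169-121485545, had fold enrichments of only 4.49, 5.74, 5.22 and 6.99. Its −log10 q was 154, 211, 188 and 237, where the medians over the members were 10.1, 8.75, 9.12 and 7.47.

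**Figure D3:**
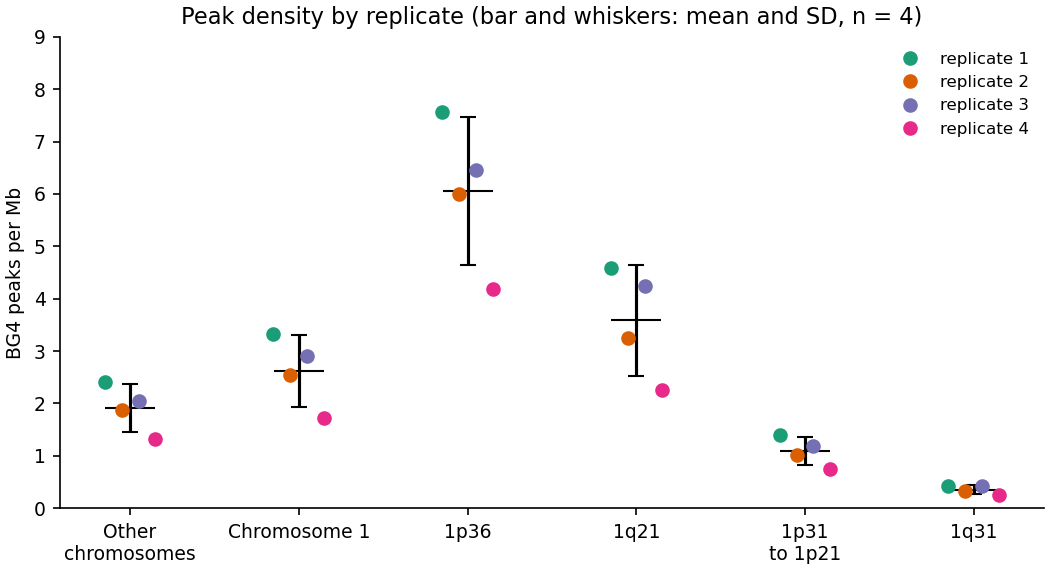
Peaks per Mb in each of the 4 replicates (points) with the mean and SD (bar and whiskers) for the other chromosomes, all of chromosome 1, 1p36, 1q21, 1p31 to 1p21 and 1q31. Of the groups plotted, 1p36 is the highest and 1q31 the lowest in each replicate, with 1p36 at 7.57 in replicate 1 and 4.18 in replicate 4.

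The 10 strongest regions, ranked by mean fold enrichment over 4 replicates, lay in both dense and sparse bands. Of these, 5 were in 1p36 and 2 were in the gene-poor 1p31 to 1p21. None of the 10 strongest lay in a window of the study's list, so none is named by a gene here. The strongest, chr1:9970217-9970918, had fold enrichments of 35.3, 35.3, 34.6 and 24.9, with a mean of 32.5 ± 5.09 (SD, n = 4), and replicate 4 stood well below the others. Its summits lay within 25 bp of each other. It ranked 11 among the 2710 regions of all chromosomes with a peak in all 4 replicates.

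The second, chr1:89458161-89458899 in 1p31 to 1p21, had 29.6, 29.7, 26.7 and 27.8, with a mean of 28.4 ± 1.44 (SD, n = 4). Its replicates were the most alike of the 10. The third, chr1:228327451-228328199 on the long arm, had 31.6, 28.5, 28.6 and 24.9, with a mean of 28.4 ± 2.76 (SD, n = 4). These means differed by less than the spread of the replicates. The seventh, chr1:228353103-228354338, lies close by and had 22.5, 31.6, 25.2 and 15.9, the widest spread of the 10 (SD 6.502). Replicate 4 was the lowest in 9 of the 10, the second-ranked region being the exception. Of the 100 strongest regions of the genome, 11 were on chromosome 1, which held 10.5% of those with a peak in all 4 replicates.

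**Figure D4:**
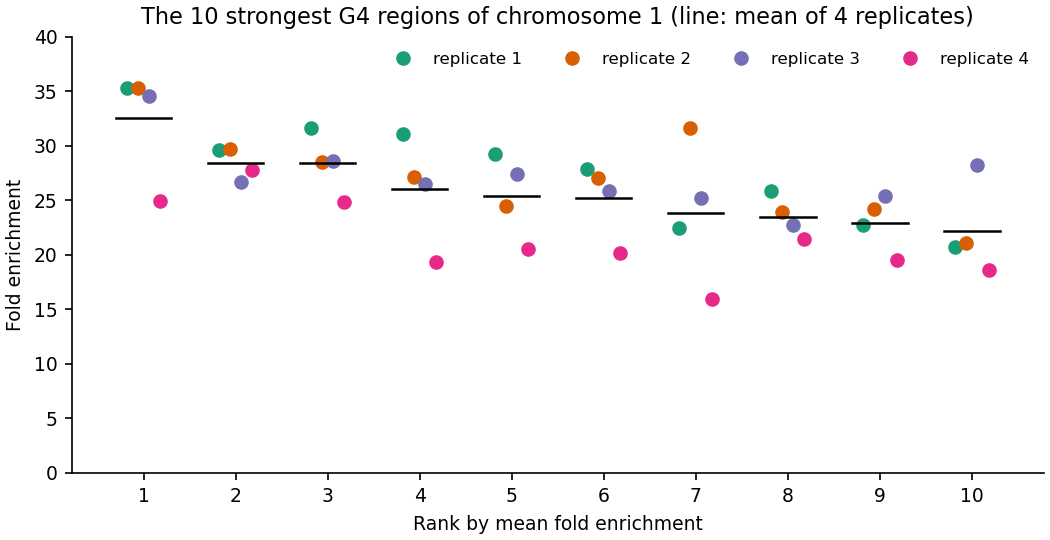
Fold enrichment in each of the 4 replicates for the 10 strongest G4 regions of chromosome 1, ordered by their mean (line). The first is at about 35 in replicates 1 to 3 and at 24.9 in replicate 4, and the replicates of the second lie between 26.7 and 29.7.

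At the other end, the weakest region with a peak in all 4 replicates was also the widest on the chromosome. It was chr1:2586080-2587649, 1570 bp wide, with fold enrichments of 3.56, 2.77, 3.28 and 3.23 and a −log10 q of 8.51, 5.35, 6.23 and 3.802. Next was chr1:2628820-2629419, in the same bin of 1p36, with 3.66, 4.14, 3.44 and 4.36. Both were low in all 4 replicates and far below the chromosome's median of 9.14.

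Regions of chromosome 1 seldom had another close by. A neighbour within 10 kb was found for 108 of 702 (15.4%, interval 12.8% to 18.3%), where the background over all recurrent regions was 18.9%. The share was 42 of 173 (24.3%) in 1p36, 12 of 49 (24.5%) in 1q21 and 6 of 57 (10.5%) in 1p31 to 1p21. The median gap to the nearest region was 61.1 kb on the chromosome and 35.2 kb in 1p36. Runs of at least 3 regions with gaps of at most 10 kb numbered 8, and 6 of them were in 1p36. The one with the most regions, chr1:564522-569649, held 5 in 5.13 kb, 4 of them with a peak in all 4 replicates, and lies over copies of mitochondrial genes.

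Where all 4 replicates had a peak, the summits were close together. The distance between the outermost summits had a median of 102 bp over 285 regions, against 97 bp over 2425 regions of the other chromosomes. It was at most 100 bp in 141 regions (49.5%). Over the 143 stronger of these regions the median was 92 bp, and over the 142 weaker it was 109 bp.

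The windows of the study's list name the genes. They were chosen by the study from these peak lists and against the HepG2 and K562 maps, so a peak in a window is not a finding. Of the 129 on chromosome 1, 67 had a peak of 1 replicate, 43 of 2, 8 of 3 and 11 of 4. At least 2 replicates had a peak in 62 (48.1%), beside 49.0% of all 1303 windows. Without replicate 1 this count was 30, and without replicates 2 or 3 it was 38 or 37. All 4 did in 11 (8.53%), beside 12.8% of all windows. By replicate, 75, 56, 61 and 29 windows had a peak. Of the 702 members, 47 (6.70%) lay in a window, beside 6.92% of all recurrent regions. Members inside windows had a peak in all 4 replicates in 11 of 47 cases (23.4%), and the share was 41.8% for the 655 outside. Their median highest fold enrichment was 6.90, against 9.40 outside, and on the other chromosomes the same medians were 7.99 and 9.24. Because of how the windows were chosen, this sets gene starts whose peaks the study took as specific to prostate cancer beside all other regions. The windows of at least 2 replicates gave 154 pairs of a window and a replicate with a peak. In 73 of these pairs (47.4%) the summit lay within 250 bp of the centre. A summit shared by several windows was counted once for each, and some summits lay outside the window that their peak overlapped.

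Among the windows with a peak in all 4 replicates, the highest mean was at TMEM125, which encodes a transmembrane protein, and EBNA1BP2, a nucleolar protein of ribosome assembly. Both windows overlapped and held 1 region, with fold enrichments of 7.30, 8.59, 10.6 and 8.06 and a mean of 8.65 ± 1.43 (SD, n = 4). At MFSD2A they were 9.68, 8.59, 7.51 and 6.96, with a mean of 8.18 ± 1.21 (SD, n = 4) and summits 27 to 48 bp upstream of the window centre. The replicates of both overlapped, so neither stood above the other.

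At EDN2 the fold enrichments were 6.65, 5.63, 6.90 and 6.78, with a mean of 6.49 ± 0.584 (SD, n = 4) and summits 76 to 90 bp upstream of the centre. The printed EDN2 sequence holds no motif, and its value was within the range of windows whose gene holds one. At IGSF9, an adhesion protein of the immunoglobulin superfamily, they were 8.08, 7.03, 6.28 and 6.07. At AK4, a mitochondrial adenylate kinase, they were 5.99, 5.44, 8.53 and 5.78, with replicate 3 above the others. AK4 was the only window in 1p31 to 1p21 with a peak in all 4 replicates. Of the genes with 3 replicates, VASH2 had 7.53, 6.58 and 6.71 in replicates 1, 3 and 4, and SUSD4 had 7.99, 7.59 and 7.53 in the same replicates. PLXNA2 had 5.47, 6.79 and 5.12 in replicates 1, 2 and 4. These 3 genes were below the median of 9.14 over the chromosome.

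**Figure D5:**
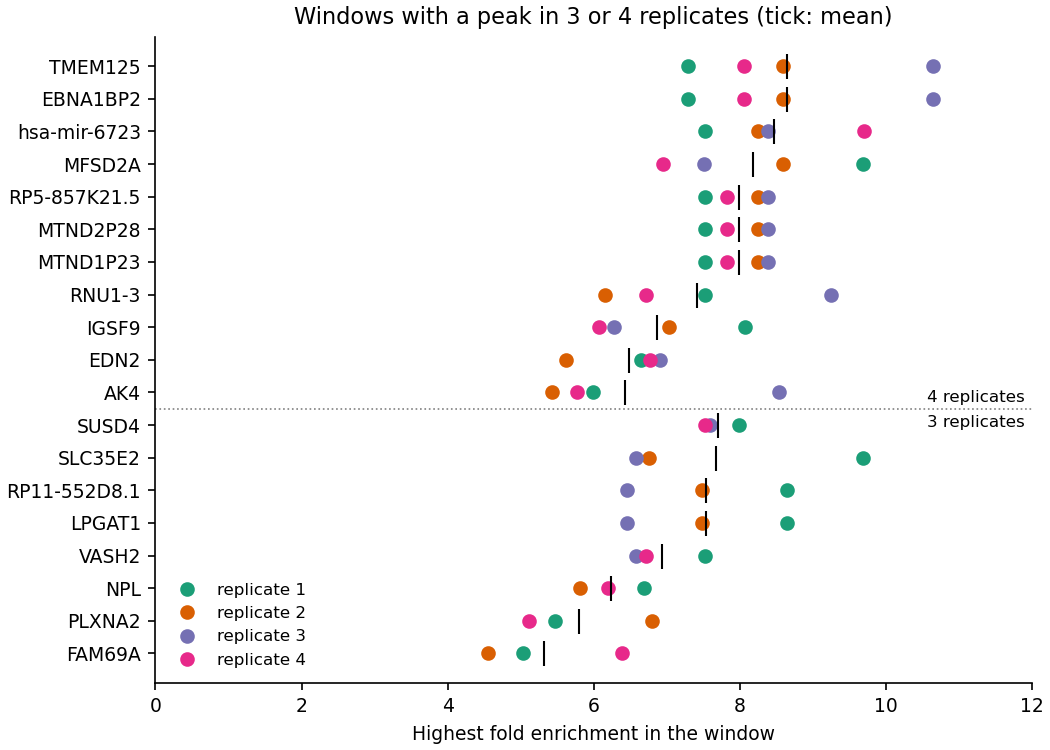
Highest fold enrichment in each replicate (points) and its mean (tick) for the 19 chromosome 1 windows with a peak in 3 or 4 replicates. Windows that share a region, such as TMEM125 and EBNA1BP2, show the same points; the means lie between 5.32 at FAM69A and 8.65 at TMEM125.

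In 1p36, 2 or more replicates had a peak in 11 of 18 windows and all 4 in 5, beside 49.0% and 12.8% of all 1303 windows. Of these 5, 4 lie over the first 3 regions of the run of mitochondrial copies, from 564522 to 568184 (RP5-857K21.5, MTND1P23, MTND2P28 and hsa-mir-6723), and the other is RNU1-3, a copy of the U1 small nuclear RNA of the splicing machinery. RP5-857K21.5, MTND1P23 and MTND2P28 shared a region with fold enrichments of 7.52, 8.25, 8.38 and 7.82, the replicates of which were close to each other. RNU1-3 had 7.53, 6.16, 9.24 and 6.71. SLC35E2, a gene of the solute carrier family, had a peak of 3 replicates, with 9.68, 6.75 and 6.58. The windows with a peak of 2 replicates were SPSB1, an adaptor of a ubiquitin ligase, CASZ1, a zinc finger transcription factor, CROCC, the rootletin of the ciliary root, RNU1-4, which shares its region with CROCC, and C1orf172. CASZ1 had 6.45 and 8.40 in replicates 1 and 2, and CROCC had 6.99 and 8.47 in replicates 1 and 3.

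In 1q21, 2 replicates had a peak in 8 of 18 windows and none had a peak of 3 or 4. Of these 8, 6 carry histone gene names (HIST2), pseudogenes included. They stand on 2 regions. HIST2H3C, HIST2H2AA3 and HIST2H2BD shared chr1:149813243-149813719, with 4.15 and 5.63 in replicates 1 and 2. HIST2H2BC, HIST2H2AA4 and HIST2H3A shared chr1:149823207-149823661, with 6.28 and 4.88 in the same replicates. These genes lie in near-identical copies, so reads may be split between them and the values are uncertain. Of the others, RP11-417J8.3 had 5.93 and 5.97 in replicates 2 and 3, and the window chr1:147998213-148002213 had 6.28 and 4.82 in replicates 1 and 3.

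Multi-copy genes differed from list to list. All 4 windows of mitochondrial copies had a peak of 4 replicates. All 5 windows of 5S ribosomal RNA, a tandem array on the long arm, had a peak of 1 replicate. The 3 U1 windows had peaks of 4, 2 and 1. Windows that hold a region of these lists or of the histone genes were then left out, also those that only share one, such as CROCC. Of the 109 windows that remained, at least 2 replicates had a peak in 49 and all 4 in 6, beside 49.0% and 12.8% of all 1303 windows. How reads with several matches were placed is not given in the sources used here, and its part in these counts was not tested.

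The other lists were made by function, with no filter on copy number, and were described by their counts alone. Of 11 developmental regulators, peaks of at least 2 replicates were found at 3, which were CASZ1, ROR1, an orphan receptor kinase, and MIR9-1, a neuronal miRNA gene. ROR1 had 7.91 and 7.53 in replicates 1 and 2. MIR9-1 had 11.6 and 6.33 in replicates 1 and 3, with summits 1514 and 1503 bp downstream of the centre. The other 8, among them the Notch targets HES5 and HES2 and the ligand WNT4, had a peak of 1 replicate. Of 7 metabolic enzymes, 5 had a peak of at least 2, among them AK4, NPL, a lyase of sialic acid, and LPGAT1, an acyltransferase of phospholipids. NPL had 6.69, 5.82 and 6.19 in replicates 1, 2 and 4, and LPGAT1 had 8.65, 7.49 and 6.46 in replicates 1 to 3. Of 7 channels and transporters 4 reached at least 2 replicates, of 7 genes of adhesion and cytoskeleton 2 and of 6 of chromatin and RNA processing 2, beside 49.0% of all windows.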

How the data were processed

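BG4 ChIP-seq had been carried out in 4 replicates of C4-2 cells. The submitters' processing notes name bcl2fastq 1.8.4, Bowtie2 2.2.5, SAMtools 1.11, MACS2 2.1.1 and hg19, while hg38 is named in the methods. The lists were read as GRCh37: chromosome 1 is 248956422 bp long in hg38 and its last peak lies further out, at 249201060. The authors deposited 1 peak list per replicate, with positions, summits, a score, a fold enrichment as a ratio over local background, and p-values and q-values as −log10. The deposited score was not used. Caller options and the use of the input are not given in the sources used here. The depth per library is unknown because the lists give no counts.

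Peaks overlapping by at least 1 bp were merged, and regions were assigned to 1 Mb bins by their midpoint. Of several peaks of a replicate in a region or window, the highest was used. Density ratios used bins wholly inside a band. The band limits (1p36 to 28 Mb, 1p31 to 1p21 from 61.3 to 107.2 Mb, the centromere and 1q12 from 121.5 to 142.6 Mb, 1q21 to 155 Mb, 1q31 from 185.8 to 198.7 Mb) are those of the cytogenetic bands of GRCh37 from general knowledge. Chromosome lengths were taken as the end of the last peak. Ratios were tested by two-sided exact permutation of signs over the 4 replicates, and shares were given exact binomial intervals at a level of 95%. Gene names came from the study's window list and promoter bases from RefSeq on GRCh38.p14, matched by symbol.

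The genes named are the chromosome 1 windows with a peak of all 4 replicates, those in 1p36 or 1q21 with a peak of at least 2 (1 of which is given by its position only), and members of the gene lists, besides the 10 strongest regions and the fullest bins. Members and lists were chosen with earlier results of these data known. The merging was tested on simulated data, and the alternatives are given in the closing section. The scripts used Python 3.11.15 with scipy 1.17.1, pandas 2.3.3, matplotlib 3.10.9 and numpy 2.4.6.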

Additional observations from a re-analysis of the deposited data

Results flagged for a closer look

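Of 47 measures with a value in each of the 4 replicates, 2 had 1 replicate far from the others, and chance flags about 1 in 20 groups. Both were low in replicate 4, which also had the fewest peaks. The highest fold enrichment of any member was 35.3, 35.3, 34.6 and 27.8 in replicates 1 to 4, and the gap of replicate 4 to its nearest neighbour was 0.901 of the whole range. The strongest region, chr1:9970217-9970918, had 35.3, 35.3, 34.6 and 24.9, with a gap of 0.929 of the range. The first 3 values are the same in both, so the 2 results are not independent. Depth was not available, and its part was not tested.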

How the results depend on the processing

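Of 86 alternatives, 59 kept the result, 26 moved it and 1 reversed it, and 39 of 40 for the density ratios kept their direction. The exception was 1q21, at 0.970 when bins without a peak of any replicate were left out of the rest. That choice lowers every such ratio. With regions counted once in place of peaks, the ratios were 2.58 for 1p36, 1.48 for 1q21 and 0.401 for 1p31 to 1p21. Leaving out each replicate in turn gave 535 to 662 regions, 53.2% to 62.4% of them with a peak in all the remaining replicates, 30 to 57 windows of at least 2 replicates and a median highest fold enrichment of 9.28 to 9.59. The 62 windows thus rest on replicate 1, without which 30 were left, and on replicates 2 and 3, without which 38 and 37 were left. The test then has 3 replicates and cannot go below 0.25. With the 3000 strongest peaks per replicate there were 331 regions, 44.4% with a peak in all 4, a mean r of 0.506, 10 windows and a median of 12.4. A −log10 q of at least 4 gave a median of 9.82. Requiring 3 replicates gave 19 windows and a median of 10.5, and requiring 4 gave 285 regions, 11 windows and a median of 12.5. The mean r was 0.290 on log2(fold enrichment + 1), 0.562 by Spearman, 0.761 over regions of all 4 replicates and 0.862 on −log10 q. The cause was not tested, apart from fewer peaks under the stricter rules. As a share, chromosome 1 held 10.7% ± 0.381 (SD, n = 4) of the peaks on chromosomes and 8.06% of their length, which is no ratio of densities. Alternatives added after the data were seen gave 2.03 for 1p36 without its first 3 bins. They gave 49 windows of at least 2 replicates without those that hold a region of multi-copy genes. No paired analysis was possible because only 1 group has peak lists. The lists give no depth, so a missing peak in replicate 4 does not show that a G4 was absent.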

Other observations

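The contig GL000191.1, an unlocalized piece of chromosome 1 that the rule does not count, held 1 recurrent region, with fold enrichments of 7.85, 6.51 and 5.09 in replicates 1, 2 and 4.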
